A study of Mus musculus with 3 samples.

Results

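The cells described here are the CD8 T cells of the blood of mice with a burn and a cut tendon, 325 of the 9725 cell barcodes of the series. They were chosen in the blood library by a rule on unique molecular identifiers (UMIs, each counting 1 captured RNA molecule): at least 200 genes and at most 20% mitochondrial UMIs, at least 3 UMIs of Cd3d, Cd3e and Cd3g together, at least 2 of Cd8a and Cd8b1 together, none of Cd79a or Ms4a1, and under 5% from S100a8 and S100a9. These values chose the cells and are no finding. In blood, 2184 cells passed the filters on genes and mitochondrial UMIs, 718 of them passed the same rule without its Cd8 condition and are called T cells, and the CD8 T cells were 45.3% of these (95% Clopper-Pearson interval 41.6 to 49.0) and 14.9% of the 2184 cells (13.4 to 16.4).

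The mice were C57BL/6J males of 10 weeks, given a dorsal burn and a full cut of the Achilles tendon, an injury after which bone forms in the tendon. Blood, bone marrow and the injured tendon were sampled on day 3, each as 1 library of unsorted cells. Bone marrow was flushed out and its red cells lysed, blood was spun on a Ficoll gradient, which keeps mononuclear cells, before red cell lysis, and the tendon site was digested with enzymes. All 3 sites shared the burn and the tendon cut, no uninjured mouse was analysed here, and how many mice went into a library is unknown here.

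With 1 library per site no difference has a replicate check. All intervals below are exact 95% intervals for counting error only (Poisson for levels, binomial for shares and ratios), and beside a count of 0 the upper limit given is instead 3 counts of the total. No test was run, and the effects of site, of preparation and of library cannot be told apart. Levels are given as counts per 1000000 UMIs summed over a group (CPM), and a gene was compared where the groups together held at least 50 UMIs of it. A change of at least 2-fold was counted as higher or lower, a rule of size and not a test. Some genes reached 50 UMIs only through the group where they stood higher, in that they would have missed it at the lower level in both groups. These had to differ, and their number is given beside the counts of gene lists.

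CD8 T cells recognise peptides held by MHC class I molecules, through a receptor that signals by way of the CD3 chains, with the CD8 alpha and beta chains as co-receptor. Naive CD8 T cells circulate between blood and lymph nodes under the transcription factors Tcf7 and Lef1, with the receptors Ccr7, S1pr1 and Il7r. Memory and effector cells lose part of this program and carry chemokines such as Ccl5, granule proteins such as granzymes and perforin, and receptors shared with NK cells.

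The label was checked on Lef1 and Dapl1, markers that the rule did not use. Lef1 stood at 425 CPM in the CD8 T cells (404 to 448), 59.4 in blood NK cells and 6.06 in blood B cells, but 454 in the CD8-negative T cells, so that it set the CD8 T cells apart from NK and B cells and not from other T cells. Dapl1, a gene of naive T cells, stood at 463 CPM (441 to 487), against 203 in CD8-negative T cells, with 1 UMI in all NK cells and none in B cells. A UMI of Lef1 was seen in 306 of the 325 cells and a UMI of Dapl1 in 216. After each cell was thinned to 2000 UMIs, so that depth could not set the share, Lef1 was seen in 52.6% of CD8 T cells (47.0 to 58.2) and Dapl1 in 42.5% (37.0 to 48.0), against 55.2% and 22% of CD8-negative T cells. The same shares in B cells, which should lack both genes and serve as the background of free RNA, were 1.11% and 0%, the latter of 360 cells, which limits it to 0.833%. Median depths were 9906 UMIs per CD8 T cell, from 3645 to 30802, and 5103 per B cell.

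Lists of genes that define other cells were summed in the CD8 T cells. Foxp3 and Il2ra, of regulatory T cells, had no UMI in the CD8 T cells, which allows up to 0.878 CPM, and Cd4 had 13 UMIs in 7 cells. The B cell list summed to 22 CPM, against 26541 in B cells, with Cd79b its most abundant gene and Cd79a and Ms4a1 at 0 by the rule. The platelet list summed to 1.76 CPM with 7 of its 10 genes at 0, and the red cell list to 14.3 CPM with 7 of 10 at 0, among them Hba-a2 and Alas2. The NK list summed to 223 CPM, of which Gzma gave 90.8, against 24939 in NK cells. Neutrophil genes summed to 143 CPM with S100a9 the most abundant at 57.7, below the 264 CPM in B cells. The monocyte and macrophage list was higher than in CD8-negative T cells, at 499 CPM against 240, with Lyz2 its most abundant gene at 287 and none of its 16 genes at 0, and most of its UMIs lay in 2 cells described further on.

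**Figure D1:**
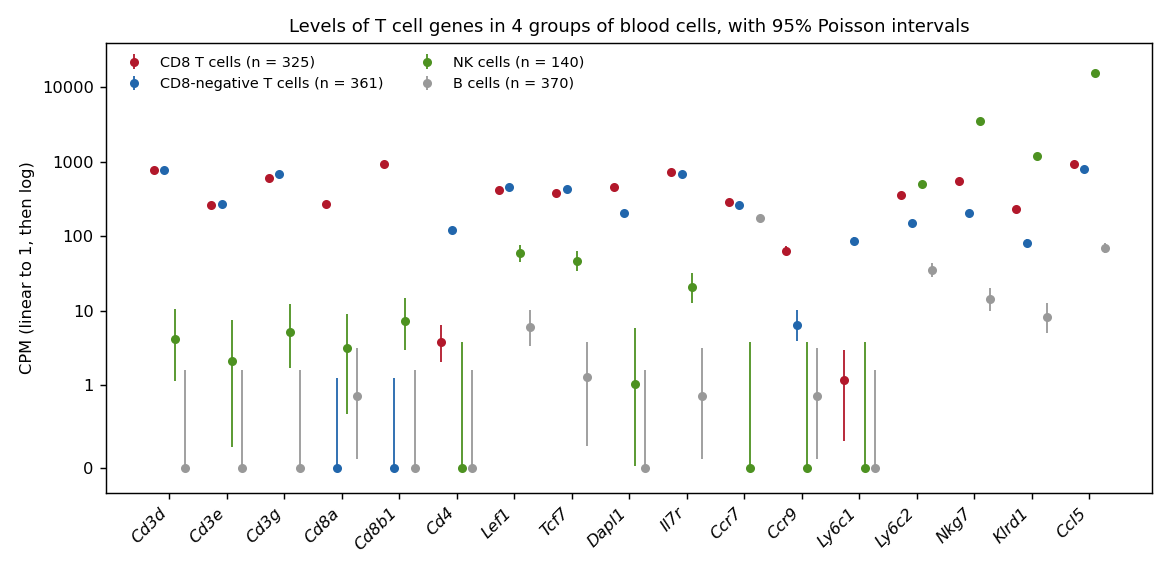
Levels of 17 genes in 4 groups of blood cells, in CPM on an axis that is linear to 1 and logarithmic above, with points for the groups and bars for 95% Poisson intervals. Lef1, Tcf7 and Il7r stand high in both T cell groups and low in NK and B cells. Ly6c1 and Ccr9 differ between the T cell groups, and both passed the minimum only through the group where they stand higher.

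The threshold of 2 Cd8a and Cd8b1 UMIs fell in a sparse range between cells with none and cells with many. The CD8 T cells had a median of 12 Cd8a and Cd8b1 UMIs and 299 of them had 5 or more, while 361 T cells had none and 32 had exactly 1. Cells just outside the threshold, with 1 such UMI, held Cd4 at 127 CPM, Ly6c1 at 152 and Nkg7 at 45.2. The 13 cells just inside, with 2, held Cd4 at 95.7 CPM, Ly6c1 at 26.1 and Nkg7 at 174. Those with 5 or more held no Cd4 UMI at all, so that 11 of the 13 Cd4 UMIs of the CD8 T cells came from the 13 cells at the threshold. On the Cd3 side the rule met a still sparser range, with 1 cell at 3 to 5 Cd3 UMIs and 5 cells that passed the Cd8 rule with 0 to 2. Those 5 had no Lef1 or Dapl1 UMI. Another 14 cells passed both T cell rules but carried a Cd79a or Ms4a1 UMI, and 1 had too many S100a8 and S100a9 UMIs.

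**Figure D2:**
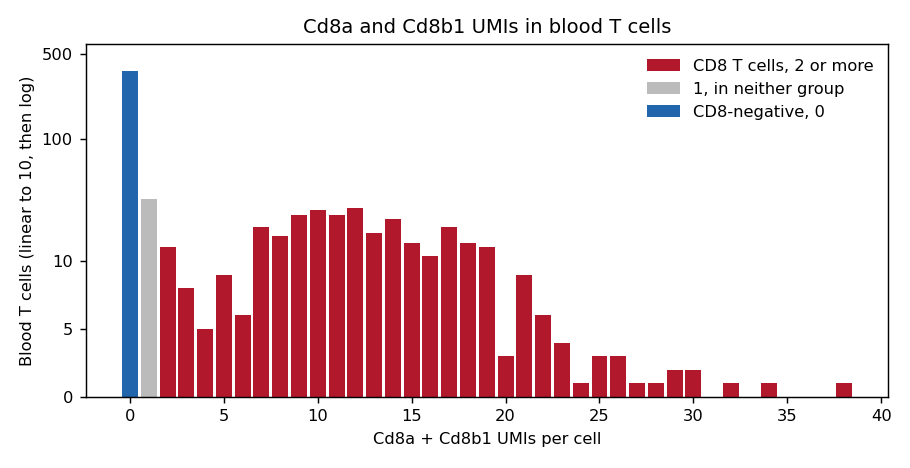
Number of blood T cells by their Cd8a and Cd8b1 UMIs, on an axis that is linear to 10 cells and logarithmic above. Red bars are the CD8 T cells, the grey bar the 32 cells with 1 UMI and the blue bar the 361 cells with none, and the red cells peak near 12 UMIs.

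The same rule found almost no CD8 T cell at the other sites. Bone marrow gave 2 of 1840 cells, or 0.109% (0.0132 to 0.392), among 16 T cells. The tendon injury gave 0 of 4978 cells, for which the upper limit is a share of 0.0603%, and its 11 T cells, with a median depth of 4159 UMIs and 8 Cd3 UMIs, held no Cd8a or Cd8b1 UMI. In that library 9 cells had 2 or more Cd8 UMIs, and not 1 of them had a Cd3 UMI. Both bone marrow cells held Ccl5, with 6 and 38 UMIs, and Nkg7, with 14 and 10, and neither held Dapl1. The bone marrow cell with Cd8b1 UMIs also held 23 of Ly6c2. Of the barcodes of the 325 blood cells, 1 also occurred in the bone marrow library and 1 in the tendon library.

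The nearest neighbours in blood were the 361 CD8-negative T cells, chosen by the same rule but with no Cd8a or Cd8b1 UMI. They were a mixed group in which 204 cells had a Cd4 UMI. Their median depth was 8064 UMIs against 9906. Of 6903 genes compared, 105 were at least 2-fold higher in the CD8 T cells, 1.52% of those tested, and 128 were at least 2-fold lower, 1.85%. Of these, 58 and 75 passed the minimum only through the group where they were higher. The median log2 ratio of all genes was -0.07. With the 2 CD8 T cells and 1 CD8-negative cell of 10 or more Lyz2 UMIs left out, an option chosen after seeing the data, the counts were 92 higher and 144 lower.

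**Figure D3:**
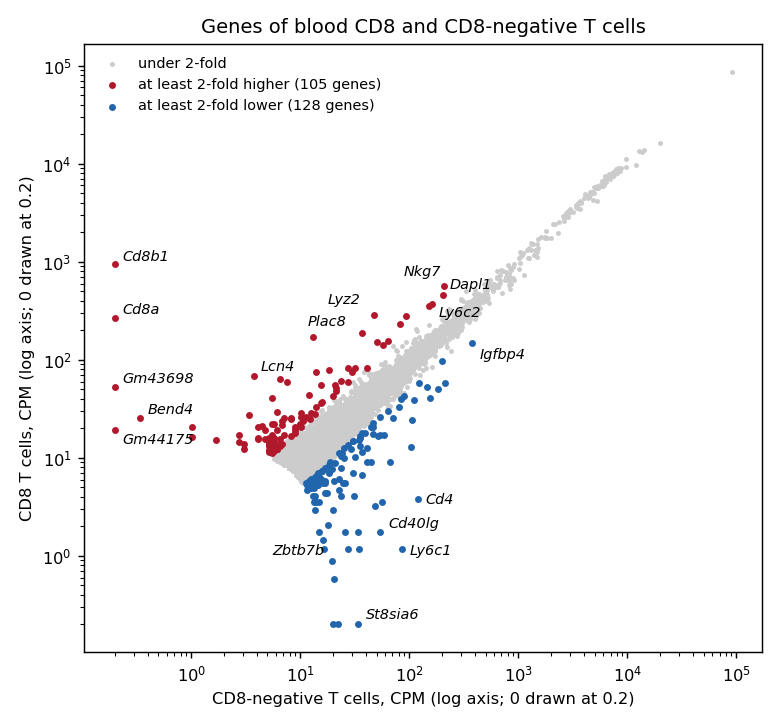
CPM of each compared gene in CD8-negative T cells and in CD8 T cells of blood, both axes logarithmic with 0 drawn at 0.2. The 105 red genes were at least 2-fold higher and the 128 blue genes at least 2-fold lower in the CD8 T cells, and most genes lie along the diagonal.

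Next to Cd8b1 and Cd8a, which the rule used, stood a group of little-studied genes. Gm44175, a long noncoding RNA gene (GRCm38 chr6:71354351-71360829, minus strand), had 66 UMIs in CD8 T cells and none in CD8-negative cells. It lies between Cd8b1 and Cd8a, on the strand opposite to both, 12597 bases from Cd8a. Gm43698, another noncoding gene (chr5:67360387-67366599, plus strand), had 182 UMIs in 120 CD8 T cells and none in the CD8-negative, NK or B cells. Against a floor of 3 UMIs its log2 ratio was at least 5.70. Its neighbour Bend4, a BEN domain gene 25547 bases away on the other strand, had 87 UMIs against 1, a log2 ratio of 6.22 with a wide counting interval (3.71 to 11.5). With the 3-UMI floor in place of that 1 UMI it was 4.64, under the bound of Gm43698. Gm44175, Gm43698 and Bend4 passed the minimum only through the CD8 T cells and had to differ, so that their values are a description.

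Of 21 homing and adhesion genes compared Ccr9 and Itgae were higher in the CD8 T cells, both passing the minimum only through these cells, and Ccr2 lower, with a median log2 ratio of -0.10. Over all genes 1.52% were higher and 1.85% lower, with a median of -0.07. Ccr9, the receptor that draws T cells to the gut, stood at 64.1 CPM against 6.47, a log2 ratio of 3.31 (2.63 to 4.07), and was seen in 118 CD8 T cells. Itgae, the integrin chain that binds E-cadherin, stood at 29.3 CPM against 6.13, a log2 ratio of 2.26 (1.52 to 3.07). Lcn4, a lipocalin gene, had 234 UMIs against 11 (log2 ratio 4.19), and 5730508B09Rik had 588 against 38 (3.73). Ncf1, a subunit of the phagocyte oxidase, had 52 against 5 (3.16), and Ehd1, of endosome recycling, 93 against 10 (3.00). These ratios of Ncf1 and Ehd1 were 3.35 and 3.09 without the Lyz2-bearing cells. Lcn4, Ncf1 and Ehd1 also passed the minimum only through the CD8 T cells and had to differ.

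Several genes of helper T cells were among the 10 lowest in the CD8 T cells, behind St8sia6 and Ly6c1. Cd4 stood at 3.81 CPM against 121, Cd40lg, the helper ligand for B cells, at 1.76 against 53.5, and Zbtb7b, the factor of the CD4 lineage, at 1.17 against 27.2. St8sia6, a sialyltransferase gene, had no UMI in CD8 T cells and 100 in the CD8-negative cells, a log2 ratio of -5.28 or lower against the 3-UMI floor. Maf, a transcription factor of helper subsets, had 4 UMIs against 101. Ckb, Pdlim4, Cd200 and Itgb3 were also among the 10 lowest, with log2 ratios from -4.28 to -3.14. St8sia6, Maf, Ckb, Pdlim4, Cd200 and Itgb3 passed the minimum only through the CD8-negative cells and had to differ. Of the 10 genes of the CD4 and regulatory T cell list 7 could be compared and were lower, beside 1.85% lower over all genes. But 4 of these 7 (Cd4, Cd40lg, Il2ra and Zbtb7b) passed the minimum only through the CD8-negative cells. The others were Icos, with 58 UMIs against 173, Ikzf2, with 44 against 307, and Tnfrsf18, with 103 against 186. Since Cd4 cells make up much of the other group, these genes describe that group as much as the CD8 T cells.

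A pair of closely similar genes went opposite ways. Ly6c1 and Ly6c2 encode GPI-anchored surface proteins that antibodies to Ly6C detect, and they lie on the minus strand of chromosome 15, 59327 bases apart with 2 other genes between them. Ly6c1 had 4 UMIs in CD8 T cells (1.17 CPM) and 253 in CD8-negative T cells (86.2 CPM), a log2 ratio of -6.20 (-8.09 to -4.83). Ly6c1 passed the minimum only through the CD8-negative cells and had to differ, so that its values are a description. Ly6c2 stood at 356 CPM in CD8 T cells against 152, a log2 ratio of 1.22 (1.07 to 1.38). Ly6c2 thus made up nearly all Ly6c UMIs of the CD8 T cells, and both genes were present among the CD8-negative cells. Their longest coding transcripts are 95% identical, and 93.5% over the last 300 bases that a 3′ library reads, so reads in shared stretches cannot be told apart and the split between the genes carries that uncertainty.

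The windows around the starts of both genes are shown because the genes share most of their transcript but not their level. They run from 250 bases before to 50 bases after a start listed by RefSeq (GRCm38.p6, minus strand), at chr15:75048788-75049087 for Ly6c1 and chr15:75111922-75112221 for Ly6c2, the pair of listed starts with the most similar windows. Capitals mark bases that mismatch or face a gap in a global alignment, which left 62.9% of its 340 columns identical.
Ly6c1: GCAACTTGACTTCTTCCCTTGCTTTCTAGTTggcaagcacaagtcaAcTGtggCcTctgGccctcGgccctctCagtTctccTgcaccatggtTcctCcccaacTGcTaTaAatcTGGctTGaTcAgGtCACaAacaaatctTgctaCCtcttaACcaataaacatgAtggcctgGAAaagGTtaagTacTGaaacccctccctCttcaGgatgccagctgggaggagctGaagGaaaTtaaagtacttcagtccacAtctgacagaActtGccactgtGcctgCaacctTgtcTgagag
Ly6c2: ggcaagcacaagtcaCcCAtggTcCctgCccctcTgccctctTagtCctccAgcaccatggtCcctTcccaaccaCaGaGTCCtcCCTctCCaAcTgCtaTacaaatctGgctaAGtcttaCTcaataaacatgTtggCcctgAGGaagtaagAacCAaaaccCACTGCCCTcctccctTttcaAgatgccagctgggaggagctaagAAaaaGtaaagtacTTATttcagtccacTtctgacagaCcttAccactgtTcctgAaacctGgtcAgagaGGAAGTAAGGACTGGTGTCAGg
The first 31 bases of the Ly6c1 window face a gap, and no factor binding was measured.

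Most genes of naive and quiescent T cells lay within 2-fold between the T cell groups. Of the 22 listed, all compared, 2 were higher (Ccr9 and Dapl1) and 3 lower (Igfbp4, Trib2 and Id3), beside 1.52% higher and 1.85% lower over all genes. Ccr9 passed the minimum only through the CD8 T cells, and the median log2 ratio was -0.04 beside -0.07 for all genes. Tcf7 stood at 381 CPM against 430, Il7r, the IL-7 receptor chain, at 739 against 684, and Ccr7, the lymph node homing receptor, at 291 against 266. The genes past 2-fold stood out from these. Dapl1 had a log2 ratio of 1.19 (1.05 to 1.33), with a UMI in 42.5% of thinned CD8 T cells and 22% of thinned CD8-negative cells. Igfbp4, an IGF binding protein gene, fell on the other side at 148 CPM against 377, a log2 ratio of -1.35 (-1.51 to -1.20), and Trib2, a pseudokinase gene, had 38.9 against 110.

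Of 34 genes listed for memory and effector cells, 25 were compared, with a median log2 ratio of -0.54 beside -0.07 for all genes. Over all genes 1.52% were higher and 1.85% lower. Of the 25, 8 were higher (Ctsw, Eomes, Gzmb, Gzmm, Klrd1, Ly6c2, Nkg7 and Zeb2) and 5 lower (Klrc1, Klrc2, Klrk1, S100a4 and Xcl1). Of these Eomes, Gzmm, Zeb2 and Xcl1 passed the minimum only through the group where they were higher. Nkg7, a protein of cytotoxic granules, stood at 561 CPM against 207 (log2 ratio 1.44, 1.31 to 1.57), and Klrd1, the CD94 receptor chain, at 232 against 81.4 (1.51, 1.30 to 1.73). Nkg7 was broad among the CD8 T cells: 293 of 325 had a UMI, against 51 of 361 CD8-negative cells. Ctsw, a cathepsin of cytotoxic cells, stood at 140 CPM against 57.2. Gzmb rested on few cells, with 191 UMIs in 10 CD8 T cells of which 1 cell held 81, and its log2 ratio fell from 1.43 to 0.64 without that cell. Of the lower genes, S100a4, a calcium-binding protein of activated and memory cells, stood at 50.4 CPM against 185 (log2 ratio -1.88).

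Markers of innate-like T and NK cells were looked at beside this list. Of the 12 genes of the NK list 7 were compared, of which Klrb1c, Klre1 and Ncr1 were lower and Eomes higher, with a median log2 ratio of -0.44. Over all genes 1.85% were lower and 1.52% higher, with a median of -0.07. Klrb1c, Ncr1 and Eomes passed the minimum only through the group where they were higher. Klrb1c, the NK1.1 receptor, had 12 UMIs in 5 CD8 T cells and 164 UMIs in 33 CD8-negative T cells, and Ncr1, the NK receptor NKp46, had 2 against 60. The NK list summed to 223 CPM in CD8 T cells and 394 in CD8-negative cells, with Gzma its most abundant gene in both. The part of such cells in the lower Klrc1, Klrc2, Klrk1 and Xcl1 of the CD8 T cells was not tested.

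Of 22 genes listed for the T cell receptor complex and its signalling 19 were in the files, and Trac, Trbc1, Trbc2 and the receptor segments were not analysed here. Cd8a and Cd8b1 were higher by the rule, Cd4 and Cd28, the main costimulatory receptor, were lower. Over all genes 1.52% were higher and 1.85% lower, with a median log2 ratio of -0.07. Cd28 stood at 98.4 CPM against 199, a log2 ratio of -1.02 (-1.21 to -0.82). Themis, a signalling protein of T cell selection, stood at 123 against 76.6, and Cd5, a brake on receptor signalling, at 46.0 against 89.6, both under 2-fold, and the list's median log2 ratio was -0.23.

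Of 29 interferon-stimulated genes compared 3 were lower and 0 higher, beside 1.85% lower and 1.52% higher over all genes. Ly6a, the surface antigen Sca-1, stood at 58.0 CPM against 214 (log2 ratio -1.88, -2.12 to -1.65), Slfn5 at 26.1 against 54.2 and Ifit2 at 13.5 against 27.6. Ifi27l2a, the most abundant example named here, stood at 532 against 841, under 2-fold, and the list's median log2 ratio was -0.26. Isg15, at 46.5 against 58.2, lay within 2-fold as well.

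Activation genes were counted beside the same shares over all genes. Of 26 listed, 15 were compared, 0 were higher and 3 lower (Dusp1, Dusp5 and Il2ra), each of which passed the minimum only through the CD8-negative cells, with 527 Cd69 UMIs (154 CPM) against 388 (132 CPM). Among 12 genes of inhibitory receptors and exhaustion 5 were compared and Btla alone was lower, while Pdcd1 had 2 UMIs and Lag3 1. The same Dusp1 was the lower gene of 11 glucocorticoid-response genes compared, and Il2ra that of 20 cytokine receptor genes. None of the 16 MHC class I and antigen processing genes, 13 glycolysis genes or 8 GIMAP GTPase genes differed by 2-fold. B2m stood at 1804 CPM against 1766, and the GIMAP genes had a median log2 ratio of -0.44.

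Ccl5, Ly6c2 and Dapl1 were spread unevenly among the CD8 T cells themselves, while Nkg7 was broad. Ccl5, the T cell chemokine RANTES, had 3199 UMIs in 60 cells, with 308 in the highest, 21 cells at 60 or more and 265 cells at 0. Nkg7 had a median of 4 UMIs per cell, Ly6c2 had a UMI in 145 cells and 0 in 180, and Dapl1 had 0 in 109 cells and up to 26 in the others. Cd8b1, for comparison, was at 0 in 1 cell and ranged up to 30.

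**Figure D4:**
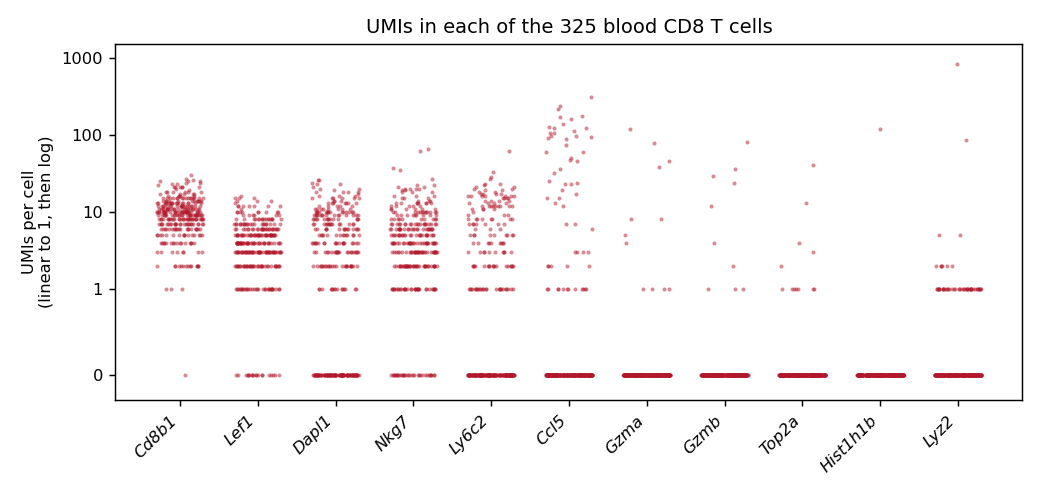
UMIs of 11 genes in each of the 325 blood CD8 T cells, 1 point per cell, on an axis that is linear to 1 and logarithmic above. Cd8b1 and Lef1 form 1 band, Ly6c2 and Ccl5 leave many cells at 0, and Hist1h1b and most of Lyz2 sit in 1 cell.

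To describe the range, the 48 CD8 T cells with 2 or more Ccl5 UMIs were set beside the 265 with none, leaving out the 12 with 1. This split is a range cut from 1 gene and no cell type, and the Ccl5-bearing cells were deeper, with a median of 13679 UMIs against 9749. The part of depth was not tested. Of 4936 genes compared, 133 were at least 2-fold higher in the Ccl5-bearing cells, 2.69%, and 150 lower, 3.04%. Of 23 memory and effector genes compared, 21 were higher, but 10 of these, Ccl5 itself among them by the split, passed the minimum only through the Ccl5-bearing cells and had to differ. Over all genes this held for 46 of the 133. Of the 150 lower genes, 106 passed the minimum only through the cells without Ccl5.

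Of the genes named next by role, Cxcr3, Cd44, Klrc1, Klrc2, Klrk1 and Il18rap passed the minimum only through the Ccl5-bearing cells and had to differ, so that their values are a description. The chemokine receptor Cxcr3 had 44 UMIs against 11 (log2 ratio 4.09), the IL-15 receptor chain Il2rb stood at 144 CPM against 25.6 (2.49, 2.02 to 2.97) and the adhesion receptor Cd44 at 60.8 against 11.3 (2.43). Ly6c2 stood at 990 CPM against 197 (2.33, 2.16 to 2.50) and Nkg7 at 1217 against 407 (1.58, 1.44 to 1.72). The NK receptors Klrc1 and Klrc2 were seen in 15 Ccl5-bearing cells each and in none of the others. Their partner chain Klrd1, by contrast, was present in both groups and under 2-fold, at 339 CPM against 210. Klrk1, the NKG2D receptor, had 119 UMIs against 17 (4.90), and the IL-18 receptor chains Il18rap and Il18r1 had log2 ratios of 3.38 and 1.14. Ly6c2 was seen in 44 of the 48 cells and in 91 of the 265.

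Naive genes were lower or near equal in the Ccl5-bearing cells. Of 21 compared, 5 were lower (Ccr9, Dapl1, Igfbp4, Lef1 and Trib2) and none higher, with a median log2 ratio of -0.45. Lef1 stood at 218 CPM against 475 (log2 ratio -1.13, -1.39 to -0.87) and Dapl1 at 178 against 530 (-1.58). Tcf7, at 322 CPM against 393, and Il7r, at 648 against 757, stayed under 2-fold. Itgae had 1 UMI against 98, Ramp1, a receptor activity modifying protein, 5 against 182, and Actn2, an alpha-actinin gene, 0 against 87. Itgae, Ramp1 and Actn2 passed the minimum only through the cells without Ccl5 and had to differ.

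**Figure D5:**
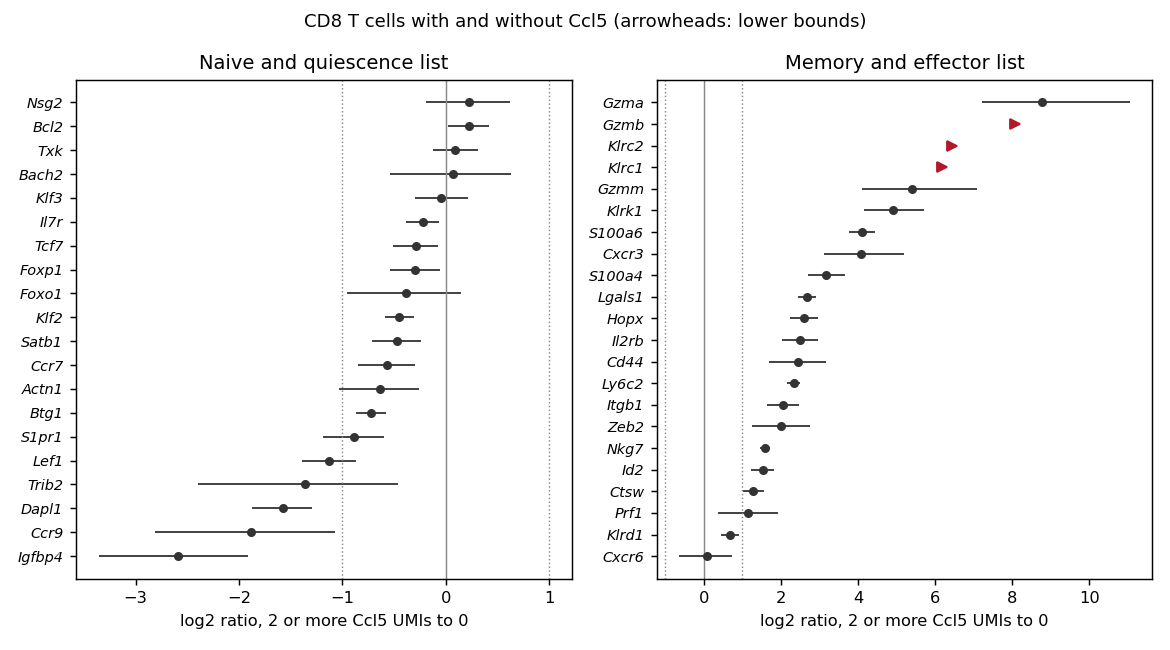
Log2 ratio of CPM between CD8 T cells with 2 or more Ccl5 UMIs and those with 0, with 95% binomial intervals, for compared genes of the naive list and of the memory and effector list (Ccl5 left out). Arrowheads are lower bounds against a floor of 3 UMIs, dotted lines mark 2-fold, and 20 of the 22 memory and effector genes drawn lie at or beyond the right dotted line.

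Of 18 genes of the T cell receptor list compared, 0 differed by 2-fold between cells with and without Ccl5. Of 26 interferon-stimulated genes none was higher in the Ccl5-bearing cells, and Ifit1 and Isg20, which passed the minimum only through the cells without Ccl5, were among those lower, and of 11 activation genes none differed. Of 20 homing and adhesion genes compared Ccr2, Cd44, Cxcr3, Itgb1 and Itgb2 were higher, and Ccr9, Itgae and Pecam1 lower. Of these Ccr2, Cd44, Cxcr3, Itgae and Pecam1 passed the minimum only through the group where they were higher.

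A single cell carried much of the granzyme and histone signal. Its 21545 UMIs included 20 of Cd3d, 30 of Cd8b1, 87 of Ccl5, 120 of Gzma, 81 of Gzmb, 41 of Top2a and all 120 Hist1h1b UMIs found in the CD8 T cells, and none of Lef1. The doublet scoring did not mark it. Gzma had 310 UMIs in 12 CD8 T cells, with 78.4% in the top 3 cells, and Gzmb 191 in 10 cells, with 76.4%. With this cell in place 4 of 9 cell cycle genes were higher in the Ccl5-bearing cells (H2afz, Hmgb2, Stmn1 and Top2a, the last passing the minimum only through these cells). Without it 1 of 8 was, H2afz at a log2 ratio of 1.25 (1.06 to 1.43), while 187 Gzma and 110 Gzmb UMIs were left in the Ccl5-bearing cells. Over all genes 133 were higher (2.69%) and 150 lower (3.04%) with this cell in place, and 111 and 163 without it.

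Another pair of cells carried the macrophage genes. Lyz2, lysozyme, had 980 UMIs, of which 1 cell held 832 and another 85. The first had 30802 UMIs, the most of any CD8 T cell, with 64 of Saa3, 84 of Chil3 and 62 of Tyrobp beside 14 of Cd8b1 and 10 of Cd3d, and the doublet scoring marked it. The second held 112 Cst3 and 19 Csf1r UMIs and was not marked. With both in place Lyz2 stood at 287 CPM against 47.7 in CD8-negative T cells, and the monocyte and macrophage list of 16 genes at 499 against 240. Without them and the 1 CD8-negative cell of the same kind, Lyz2 stood at 18.7 against 23.6 and the list at 157 against 204.

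To ask which differences from the CD8-negative T cells lay outside the Ccl5-bearing cells, the 265 CD8 T cells without Ccl5 were set beside the 298 CD8-negative T cells without it, a comparison added after seeing the data. Of 6151 genes, 120 were at least 2-fold higher, 1.95%, and 88 lower, 1.43%. Nkg7 stood at 407 CPM against 17.0, a log2 ratio of 4.58 (4.13 to 5.08), with a UMI in 233 of 265 cells against 4 of 298. Klrd1, Ly6c2 and Ctsw had log2 ratios of 3.78, 3.57 and 2.87, each above its ratio over all cells. The split also took CD8-negative cells with Ccl5 out, and Nkg7 fell more in that group than in the CD8 T cells. The higher ratios therefore describe both groups and not the CD8 T cells alone. Of 14 memory and effector genes compared 6 were higher, those 4 with Hopx and with Cxcr6, which passed the minimum only through the CD8 T cells, and 2 lower, S100a4 and S100a6. The naive genes gave the same 2 higher and 3 lower as before. Racgap1, a GTPase regulator of cell division, was also higher, with 142 UMIs against 7, a log2 ratio of 4.17 (3.09 to 5.51). Racgap1 passed the minimum only through the CD8 T cells and had to differ. Plac8, which the Lyz2-bearing cells also express, was higher as well (4.05).

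Against the 140 blood NK cells, chosen by at least 2 UMIs of Ncr1 and Klrb1c and under 3 of the Cd3 genes, the CD8 T cells differed broadly. Of 6139 genes compared 368 were higher, 5.99%, and 1203 lower, 19.6%, around a median log2 ratio of -0.47 for all genes. Ribosomal protein genes took 42.4% of the UMIs of CD8 T cells and 21.5% of those of NK cells. With ribosomal protein and mitochondrial genes left out of the totals the median was 0.02, and 629 genes were higher and 478 lower. The ratios and counts against NK cells given here are not corrected for that median. Of 21 naive genes compared 12 were higher and none lower (17 and none under the other totals). Among the 12 were Ccr7, with 995 UMIs against 0, and Igfbp4, with 505 against 0. Of the 12, 7 passed the minimum only through the CD8 T cells, both of these among them.

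Of 33 memory and effector genes, 28 were lower than in NK cells and 1, Cxcr6, was higher (28 and 2 under the other totals). Of the 28, 9 passed the minimum only through the NK cells, among them Ifng, Ccl3 and Ccl4, and Cxcr6 only through the CD8 T cells. Nkg7 stood at 3497 CPM in NK cells and Ccl5 at 15499, and both were lower in the CD8 T cells, with log2 ratios of -2.64 and -4.05. Gzma was at 12139 CPM in NK cells. Ly6c2 lay near the NK level of 504 CPM, with a log2 ratio of -0.50 that was 0.00 under the other totals. Of 27 interferon-stimulated genes 10 were higher in the CD8 T cells, among them Ifi27l2a at 532 CPM against 66.7 and Ly6a at 58.0 against 2.09, and none was lower (13 and none under the other totals). Of the 10, 6 passed the minimum only through the CD8 T cells.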

How the data were processed

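The authors prepared 10x single cell 3′ v3 libraries and deposited, per sample, a genes-by-cells matrix of raw UMI counts, made against mm10 per the labels (the file headers name Cell Ranger 5.0.1). The 3 deposited matrices held 27998 genes and 9725 barcodes, with 49580625, 22542581 and 90621052 UMIs in bone marrow, blood and tendon. Nothing read here states how many mice a library held, so cells and not animals stand behind each value.

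Counts were read as deposited, filtered by the stated rule and summed per group, and ratios are of CPM. The cells, the 22 gene lists and the comparisons were chosen with earlier results of these data known, and no list is independent evidence. Named genes were the rule genes and markers, members of the lists, the 10 genes with the largest ratio in each direction (among genes with a UMI in 10% or more of the cells of the group with the higher level), the 15 most variable genes (variance over that of Poisson counts) and the 15 most abundant. Of the list genes, 11 were not analysed here, and some measured genes are not reported here. B cells had at least 3 Cd79a and Ms4a1 UMIs and no Cd3 UMI. Bounds use a floor of 3 UMIs per group. Doublets were not removed but scored with Scrublet in scanpy 1.11.5 (Python 3.11.15), marking the top 0.8% of cells per 1000. Coordinates are from GENCODE M21 (GRCm38), matched by Ensembl ID for 27645 of 27998 genes. The interval code was tested on simulated counts.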

Additional observations from a re-analysis of the deposited data

How the results depend on the processing

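The results were recomputed under 14 alternatives, 11 of them planned and 3 chosen after seeing the data, which gave 1028 log2 ratios of the 74 results on named genes that were recomputed. Of these, 994 stayed within the counting interval of the main value. The log2 ratio of Ly6c2 against NK cells, under 2-fold, went from -0.50 to 0.00 with ribosomal protein and mitochondrial genes out of the totals. Requiring both Cd8a and Cd8b1 and no Cd4 gave 12.8% of blood cells, 38.9% of blood T cells and 1 bone marrow cell. Leaving ribosomal protein and mitochondrial genes out of the totals gave 629 higher and 478 lower genes against NK cells.

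The counts of genes past 2-fold depended on the filter on low counts. With at least 20 UMIs per gene they were 249 higher and 319 lower against CD8-negative T cells, 622 and 1860 against NK cells, 360 and 512 between Ccl5-bearing and other CD8 T cells, and 302 and 255 between T cells without Ccl5. With no filter they were 1660 and 1884, 2510 and 3651, 1653 and 2904, and 1848 and 1677 in the same order, since genes of few UMIs pass 2-fold on a handful of molecules. Leaving out the cells with the highest Scrublet scores removed 2 CD8 T cells and left 323. The Lyz2 difference from CD8-negative T cells changed sign without the cells of 10 or more Lyz2 UMIs, to a log2 ratio of -0.33 (-0.85 to 0.18). No paired analysis was possible because each site gave 1 library and no result came from a test over samples. In the tendon library the number of cells is the limit, as 0 of 11 T cells allows a CD8 share among them of up to 27.3%.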

Other observations

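Several lists that the comparisons above do not lead with held few UMIs in the CD8 T cells. The dendritic cell list summed to 140 CPM, of which Bst2, an interferon-stimulated gene that T cells also carry, gave 132, and Flt3, Clec9a and Batf3 were among its 5 genes at 0. Of the 10 genes listed for gamma delta and innate-like T cells 6 were analysed here, without the constant genes of the gamma delta receptor. These 6 summed to 8.78 CPM, with Sox13, Il23r and Zbtb16 at 0, against 64.0 CPM in CD8-negative T cells. Klrb1c, which NK cells also carry, gave 55.9 of the 64.0 CPM. The sums therefore do not tell how many gamma delta cells either group held. Ifng had 2 UMIs in the 325 cells and 53 in the 140 NK cells. Eomes, the transcription factor of memory CD8 T cells and NK cells, stood at 13.5 CPM in the CD8 T cells and 229 in NK cells. Among abundant transcripts, Gm42418, which overlaps ribosomal RNA sequence, took 8.69% of the UMIs of the CD8 T cells and 9.04% of those of CD8-negative T cells.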
